A study of Mus musculus with 6 samples.

Results

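Activator protein 1 (AP-1) and the immediate early genes that are induced with it are represented here by 10 genes, Fos, Fosb, Fosl1, Fosl2, Jun, Junb, Jund, Atf3, Egr1 and Ier2. They were taken by name, as members of the FOS and JUN families and genes induced alongside them, from a table of 23361 genes, in which all 10 were present. RNA from whole testes was sequenced in 6 C57BL/6J mice at an age near 120 days, 3 given an inhibitor and 3 given vehicle. Both groups carried V805A on both copies of Ret, whose product is the receptor kinase for glial cell line-derived neurotrophic factor (GDNF). That substitution makes the kinase sensitive to 1NaPP1-HCl, and the study used it to inhibit GDNF signalling. The inhibitor mice were injected daily for 9 days with 1NaPP1-HCl dissolved in saline, cremophor and ethanol. The control mice received the same vehicle without the compound, at the same 10 µl per gram of body weight. Injections then stopped for 5 days, and the testes were taken on day 14. The controls carry the substitution too, and no mice without it are among the samples, so effects through Ret and effects of the compound elsewhere cannot be told apart.

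AP-1 is a dimer of basic leucine zipper proteins. A JUN protein pairs with a FOS protein, with another JUN or with a relative of the ATF group, and the pair binds the phorbol ester response element (TRE) or the cyclic AMP response element (CRE). Growth factor receptors, Ret among them, signal through RAS and the mitogen-activated protein kinases (MAPKs) to serum response factor (SRF) and CREB, which start transcription of Fos, Egr1 and related genes within minutes. The messages are short-lived, since proteins that bind AU-rich elements direct their decay. Jund differs from its relatives in being expressed steadily in many resting cells.

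The bases just before the transcription start of 4 of the genes are shown for comparison. The stretches of 3 hold a core CRE sequence, at which CREB and its relatives can bind. That of Jun holds no exact match to this core. Each stretch is the 150 bases before the RefSeq start on build GRCm38.p6, written 5′ to 3′ on the gene's own strand. Capitals mark each TGACG, the core of the CRE. Fos lies on chromosome 12, Fosb on chromosome 7, Jun on chromosome 4 and Junb on chromosome 8.
Fos (chr12:85473740-85473889, forward strand): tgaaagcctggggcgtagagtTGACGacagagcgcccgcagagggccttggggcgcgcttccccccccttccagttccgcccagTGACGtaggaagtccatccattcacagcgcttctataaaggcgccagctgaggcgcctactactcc
Fosb (chr7:19310046-19310195, reverse strand): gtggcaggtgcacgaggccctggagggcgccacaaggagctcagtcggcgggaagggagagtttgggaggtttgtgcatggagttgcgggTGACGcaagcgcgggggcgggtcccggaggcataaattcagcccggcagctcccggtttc
Junb (chr8:84978749-84978898, reverse strand): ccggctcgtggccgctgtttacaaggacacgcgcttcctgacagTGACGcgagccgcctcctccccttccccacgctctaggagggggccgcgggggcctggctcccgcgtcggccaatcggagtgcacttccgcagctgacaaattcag
Jun (chr4:95052223-95052372, reverse strand): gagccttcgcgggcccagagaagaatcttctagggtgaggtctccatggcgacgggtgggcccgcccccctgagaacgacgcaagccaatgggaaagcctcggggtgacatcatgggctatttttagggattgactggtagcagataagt
Fos holds that core beginning at positions −129 and −66 from its start and the TATA letters TATAAA at −33. Fosb holds the core at −60 and Junb at −106, and the Jun stretch holds no exact match. The Jun stretch does hold tgacatca, which differs from the full CRE TGACGTCA by a single base. Such near matches were not searched for.

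The RefSeq table had a window of 300 bases, 250 before and 50 after the start, for 7 of the 10 genes (Atf3, Jun, Fosl2, Fosb, Jund, Junb and Fos). Searched on both strands, the CRE core TGACG was in 4 of these windows (Atf3, Fos, Fosb and Junb) and in 20.8% of all 32841 windows of that length. The GC box GGGCGG was in 5 (Atf3, Fos, Fosb, Fosl2 and Jun) against 35.7% of all, and TATAAA in 2 (Fos and Junb) against 13.6%. The EGR site GCGNGGGCG was in 2 (Fosb and Fosl2) against 5.55%, and in both genes it overlapped a GC box. The TRE TGANTCA (7.81% of all windows), the full CRE TGACGTCA (1.79%) and the CArG box bound by SRF (1.63%) were in none of the 7. Sites further than 250 bases before a start were not searched, and Egr1 had no window. The absence therefore holds for these windows alone. The window given for Jund starts from a site 1210 bases upstream of the start in GENCODE M21, so it may not hold the promoter of the transcript counted here. The windows of Atf3 and Fosl2 are set from starts 34706 and 671 bases downstream of the outermost GENCODE start. The GENCODE start of Junb lies 30 bases downstream of its RefSeq start. The TATAAA of Junb, at 1 to 6 after the RefSeq start, thus lies before the GENCODE start.

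The libraries held between 23144295 and 43127892 fragments assigned to genes, so 1 CPM (a count scaled to library size) stood for 23.1 to 43.1 fragments. Germ and somatic cell markers were present as in testis: the protamine gene Prm1 averaged 2965 CPM in inhibitor mice and 2579 CPM in controls, the meiotic gene Sycp3 187 and 164, and the Sertoli cell gene Sox9 21.3 and 24.0. Ret itself averaged 0.579 ± 0.086 CPM in inhibitor mice and 2.17 ± 0.294 CPM in controls (SD, n = 3 per group), a log2 fold change of −1.91 that passed (edgeR adjusted p = 0.020). That call did not hold without control mouse 1 or 2 or inhibitor mouse 1 or 2 (edgeR adjusted p = 0.093 to 0.157). In each of those omissions no gene at all was called, and the log2 fold change of Ret was −2.0 to −1.8. Whole testis was sequenced, so fewer cells of a type and less RNA per cell cannot be told apart. The labels name separate mice but no shared litter or day for mice with the same number.

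Per transcript length, Jund was the most abundant of the 10 by a wide margin. Its mean over the 6 mice was 36.9 FPKM (fragments scaled to transcript length and library size, the authors' deposited values), which is above 87.1% of all genes in the table. Jun (3.00 FPKM), Ier2 (2.82) and Junb (2.49) came next, with ranges over the 6 mice that overlapped from each gene to the next. Egr1 followed at 1.24 to 1.68 FPKM, a range that overlapped that of neither neighbour. The FOS family stood lower: Fosl2 averaged 0.872 FPKM, Fosb 0.669, Fosl1 0.394 and Fos 0.224, each overlapping the next in range. Fos, which gives the family its name, was above 30.1% of the genes in the table, and Atf3 was the lowest of the 10 at 0.069 FPKM.

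**Figure D1:**
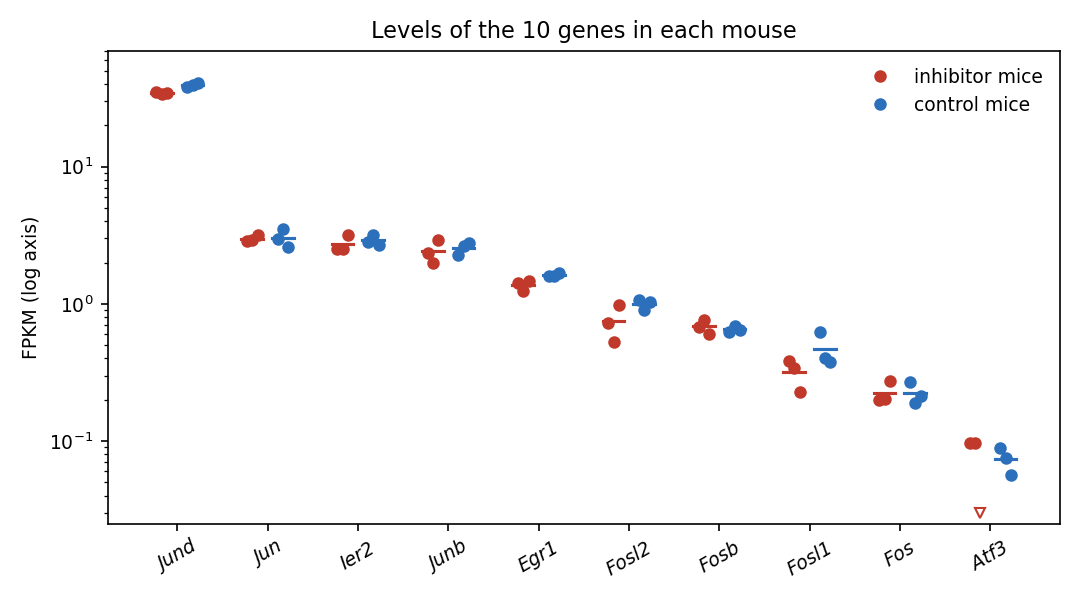
FPKM of the 10 genes in each mouse on a log axis, inhibitor mice in red to the left of controls in blue, genes ordered by their mean over the 6 mice. Points are mice, short lines are group means, and the open triangle at the bottom edge marks Atf3 at 0 in 1 inhibitor mouse, where no mean line is drawn; Jund lies between 33.9 and 40.6 FPKM and every other gene below 3.5 FPKM.

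Both family sums lay below the controls in every inhibitor mouse, while their ratio overlapped between the groups. No test was run on these sums, and no length or GC trend was removed from them. Among single genes tested, every inhibitor mouse was below every control for 11.9%. Summed over Jun, Junb and Jund, the JUN level was 39.9 ± 0.973 FPKM in inhibitor mice and 44.8 ± 1.53 FPKM in controls (SD, n = 3 per group). Most of that sum was Jund, at 34.5 ± 0.689 FPKM in inhibitor mice and 39.2 ± 1.35 FPKM in controls. Jun, Junb and each of the 4 FOS genes overlapped between the groups. Summed over the 4 FOS genes it was 1.98 ± 0.123 FPKM in inhibitor mice and 2.34 ± 0.216 FPKM in controls. The ratio of the JUN sum to the FOS sum was 20.3 ± 0.825 in inhibitor mice and 19.3 ± 2.28 in controls. Jund alone made up 82.4 ± 1.38% of the FOS and JUN total in inhibitor mice and 83.2 ± 0.815% in controls. Computed from CPM per kilobase of the longest GENCODE transcript, a choice made after seeing the data, these shares were 89.2% and 89.7%.

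None of the 9 genes with enough fragments to be tested differed between the groups past the threshold. The test was edgeR's quasi-likelihood test with Benjamini-Hochberg adjustment over all 16658 genes tested, at 0.05, and it called 0.156% of them, 0.096% as lower in inhibitor mice. Of the 9 members, 7 had a lower estimate in inhibitor mice and 2 a higher one, with a median log2 fold change (inhibitor over control) of −0.10, against −0.0041 over all genes tested. In 2 members, Jund and Egr1, every inhibitor mouse was below every control, which held for 11.9% of all genes, and in no member was every inhibitor mouse above, which held for 11.0%. At an unadjusted p below 0.05, only Jund was lower, among 8.48% of all genes. DESeq2 gave an adjusted p for Jund (0.069) and Jun (0.956) alone among the members, and called neither.

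Jund encodes the JUN protein that predominates in resting cells. Its gene is a single exon on chromosome 8 from 70698949 to 70700616 on the forward strand (GRCm38, GENCODE M21). It had 96.2, 92.4 and 93.5 CPM in inhibitor mice 1 to 3, against 103.0, 107.5 and 110.5 CPM in control mice 1 to 3. All inhibitor mice thus lay below all controls, and with 2113 to 4719 fragments a library it was the most precisely measured of the 10. The log2 fold change was −0.19 (SE 0.051, 95% interval −0.30 to −0.07), a level 1.14-fold lower in inhibitor mice, and it did not pass (edgeR adjusted p = 0.110).

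Jun, the first JUN gene described and a target of its own protein, was at 8.76, 8.88 and 9.55 CPM in inhibitor mice and 9.01, 10.7 and 7.96 CPM in controls. The groups overlapped fully, the controls spanning all the inhibitor values. The log2 fold change of Jun was −0.03 (SE 0.119, 95% interval 0.819-fold to 1.17-fold). Junb, which can oppose Jun in some settings, was at 3.93, 3.32 and 4.86 CPM in inhibitor mice and 3.76, 4.44 and 4.66 CPM in controls, again overlapping (log2 fold change −0.09, SE 0.164). Jun and Junb did not pass (edgeR adjusted p = 0.929 and 0.830). Some exonic bases of all 3 JUN genes are shared with a gene on the opposite strand in GENCODE M21. For Jund 52.6% of them lie under the antisense gene Gm11175, for Jun 7.28% under Junos and for Junb 7.52% under Prdx2. Which strand the authors counted is not stated in the sources used here. Without it, fragments of a gene and its partner cannot be told apart.

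Among the FOS genes, Fosl2, which encodes Fra-2, had the largest estimated difference after Fosl1 and the largest spread beyond counting error over both groups together. Its gene spans chr5:32135801-32157842 on the forward strand (GRCm38). Fosl2 stood at 4.21, 3.06 and 5.63 CPM in inhibitor mice 1 to 3, and at 6.09, 5.22 and 5.95 CPM in control mice 1 to 3. Inhibitor mice 1 and 2 were below all controls, while inhibitor mouse 3 lay within their range. The log2 fold change was −0.40 (SE 0.190, 95% interval −0.82 to 0.01) and did not pass (edgeR adjusted p = 0.291). Without inhibitor mouse 3 it was −0.65 and passed (edgeR adjusted p = 0.018), as did Jund at −0.18 (0.027). In that comparison 5.54% of 16871 genes were called lower, against the 0.096% called lower with all 6 mice. With any other single mouse left out neither gene passed. Without inhibitor mouse 2 Fosl2 was at −0.22 (edgeR adjusted p = 0.604).

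Fosb, whose splice forms include the long-lived ΔFOSB, was at 2.47, 2.80 and 2.204 CPM in inhibitor mice and 2.28, 2.51 and 2.35 CPM in controls. The highest and the lowest value were both in inhibitor mice, and the log2 fold change was 0.06 (SE 0.166). Fos was at the edge of detection, with 11, 9 and 15 fragments in inhibitor mice and 13, 16 and 12 in controls. These are 0.382, 0.394 and 0.525 CPM against 0.520, 0.364 and 0.408 CPM, and the groups overlapped. The log2 fold change of Fos was 0.05 (SE 0.346), and its 95% interval reached from 0.613-fold to 1.74-fold. Over the 6 libraries the fragments of Fos and Fosb were spread no more than counting alone gives, with chi-square values of 0.341 and 0.457 per degree of freedom, against 7.19 for Fosl2 and 22.5 for Jund. These values span both groups, so they include any difference between them. They also grow with the number of fragments, so they do not compare the variation between mice from gene to gene. Fosb and Fos did not pass (edgeR adjusted p = 0.898 and 0.962).

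Fosl1, which encodes Fra-1 and is itself an AP-1 target, was at 0.591, 0.525 and 0.350 CPM in inhibitor mice and 0.961, 0.615 and 0.578 CPM in controls. Fosl1 spans chr19:5447547-5455946 on the forward strand. Inhibitor mouse 1 lay between the controls, and 10 to 27 fragments stood behind each value. The log2 fold change of −0.53 (SE 0.338) did not pass (edgeR adjusted p = 0.440). In GENCODE M21, 57.2% of the exonic bases of Fosl1 lie under Ccdc85b on the opposite strand. Ccdc85b averaged 3.68 ± 0.542 CPM in inhibitor mice and 5.04 ± 0.451 CPM in controls (log2 fold change −0.45, SE 0.150), without overlap of the groups, and it did not pass (edgeR adjusted p = 0.151). Fragments of Fosl1 and Ccdc85b cannot be told apart without the strand setting.

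Egr1, a zinc finger factor induced through SRF, was at 4.14, 3.63 and 4.27 CPM in inhibitor mice and 4.68, 4.72 and 4.90 CPM in controls. All inhibitor mice were below all controls, with 83 to 207 fragments a library. The log2 fold change of −0.24 (SE 0.132, 95% interval −0.53 to 0.04) did not pass (edgeR adjusted p = 0.355). Ier2, a small nuclear protein induced by growth factors, was at 3.41, 3.37 and 4.23 CPM in inhibitor mice and 3.76, 4.33 and 3.64 CPM in controls. Ier2 is a single-exon gene at chr8:84661331-84662852 on the reverse strand. The groups overlapped, and the log2 fold change of −0.10 (SE 0.153) did not pass (edgeR adjusted p = 0.792). Atf3, a stress-induced partner of JUN, had 5, 4 and 0 fragments in inhibitor mice and 4, 6 and 3 in controls, too few to be tested. In inhibitor mouse 3 the count of 0 allows up to 0.105 CPM (a floor of 3 counts, for counting error only), and the other 5 libraries lay between 0.102 and 0.175 CPM.

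**Figure D2:**
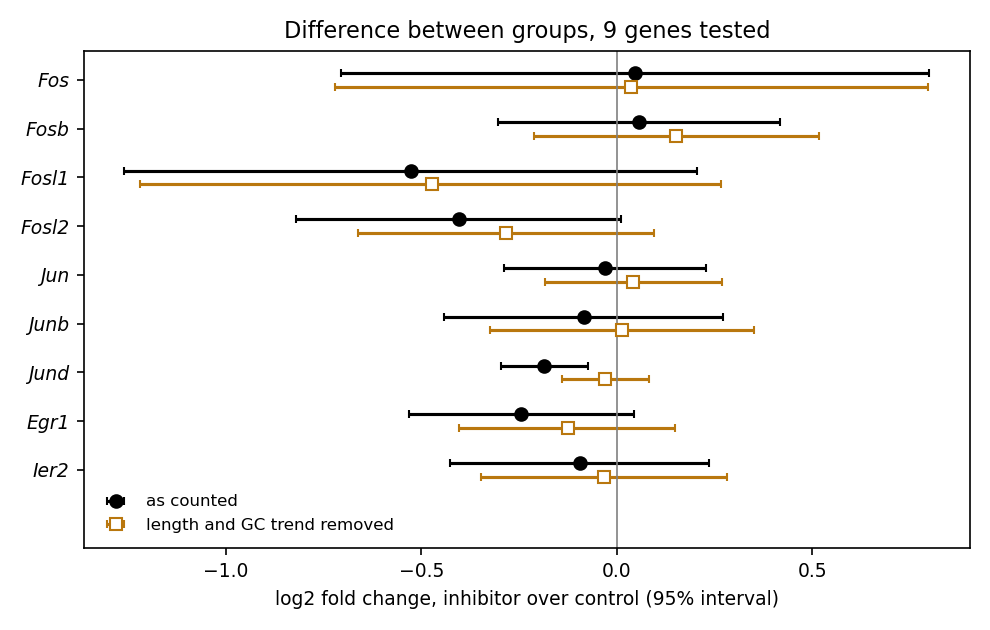
Log2 fold change, inhibitor over control, of the 9 tested genes with 95% intervals (n = 3 mice per group), from the counts as deposited (black circles) and after removing from each library its dependence on length and GC content (open squares). Only the interval of Jund as counted, −0.30 to −0.07, leaves out 0, and with the trend removed it is −0.14 to 0.08.

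Differences between the groups followed the GC content of the transcripts across all genes, and most members are rich in GC. Of the 9 tested members, 7 were in the quintile of tested genes with the highest GC content (55.4% to 73.1% of the longest transcript) and Fos and Fosl2 in the next. In that highest quintile the median log2 fold change was −0.069 and 68.4% of genes were lower in inhibitor mice. In the quintile with the lowest GC content the median was 0.06 and 34.3% were lower. Jund, at 67.1% GC, has few tested genes at or above its content. These number 27 with Jund itself, their median log2 fold change was −0.17, and 85.2% of them were lower. With each library's trend on length and GC removed, Jund was at −0.03 (SE 0.051, edgeR adjusted p = 0.847) and Egr1 at −0.13 (SE 0.128, adjusted p = 0.707). Fosl2 was then at −0.28 and Fosl1 at −0.47, while Jun and Junb turned to 0.04 and 0.01. The members' median became −0.03, against 0.0065 over all genes. The trend was fitted across the genes of each library. Its removal therefore takes out any group difference that follows length or GC, whatever its source, and that source was not tested.

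**Figure D3:**
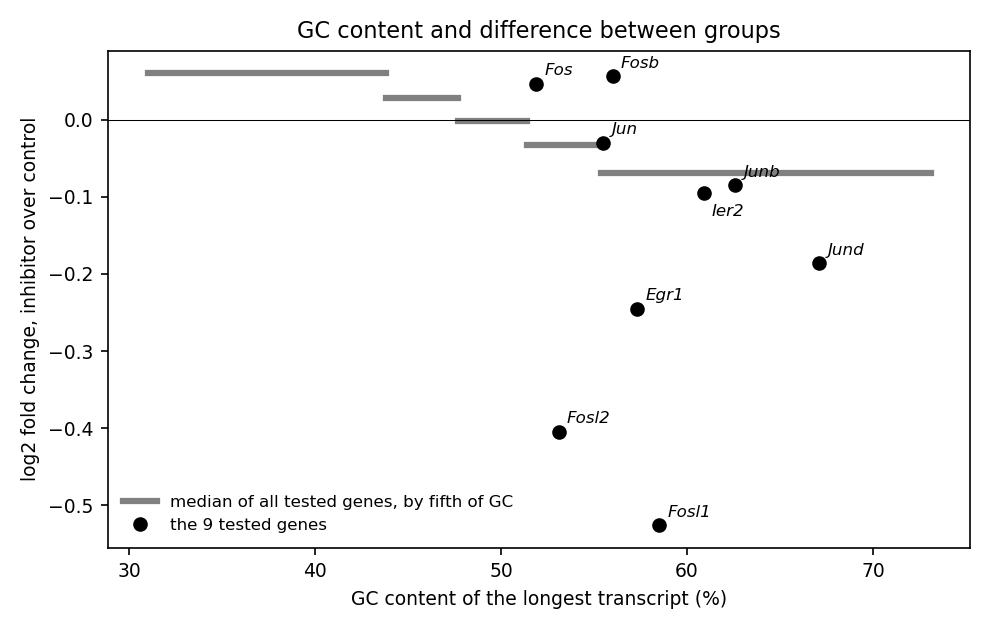
GC content of the longest transcript (percent) against log2 fold change, inhibitor over control, for the 9 tested members (points) and for all tested genes with a transcript length, shown as the median of each quintile by GC content (grey bars spanning it). The medians step down from 0.06 in the lowest quintile to −0.069 in the highest, and 7 of the 9 members lie in the highest.

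Inhibitor mice 1 and 2 were below the mean of the 6 mice for 7 and 8 of the 9 tested members, and inhibitor mouse 3 for 4. Inhibitor mouse 2 was lowest of the 6 for 5 of the 9 (Fosl2, Junb, Jund, Egr1 and Ier2 by log2 CPM) and highest for Fosb. Mean deviations over the 9 members were −0.08 for inhibitor mouse 1 and −0.18 for inhibitor mouse 2 on the log2 scale. Inhibitor mouse 3 stood at 0.0023, above the mean for 5 members, and was lowest for Fosb and Fosl1. Control mice 1, 2 and 3 had mean deviations of 0.12, 0.083 and 0.044, and control 2 was above the mean for 8 members of 9. Fosl1 and Fosl2 varied most, by 2.74-fold and 1.99-fold in FPKM between their lowest and highest mouse, and Jund least, by 1.20-fold.

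**Figure D4:**
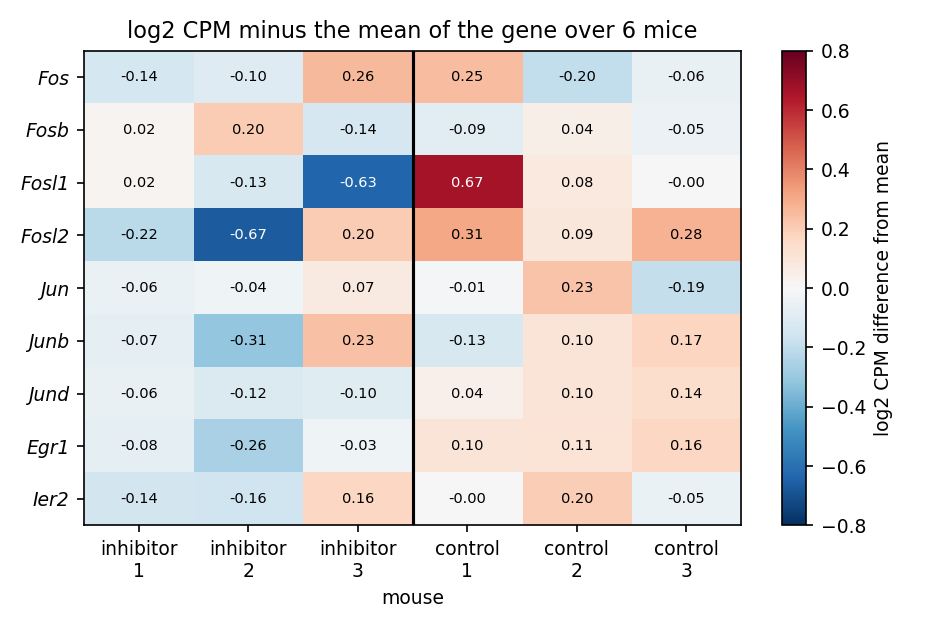
Log2 CPM of each tested member in each mouse minus that gene's mean over the 6 mice, inhibitor mice left of the black line and controls right of it. Jund and Egr1 are below their mean in all 3 inhibitor mice and above it in all 3 controls, while the other 7 genes have mice of both kinds on the same side.

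The genes whose profile over the 6 libraries was nearest to the members' mean profile were Mast2, Hexim1, Sptan1, Polr1a, Dnajc13 and Plekhg1. Nearness was the root mean square difference in centred log2 CPM, 0.012 for Mast2 and 0.018 for Plekhg1, among 10908 named genes whose mean log2 CPM reached 2. The choice by profile fixes the direction of their differences. Their log2 fold changes ran from −0.18 to −0.15 and none passed (edgeR adjusted p = 0.133 to 0.224). Scaled by library totals alone, 3 of these 6 were still among the nearest.

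Other genes of the pathway were described in 8 lists of 165 symbols, of which 156 were tested. None of the 156 passed in either direction. The estimate was lower in inhibitor mice for 106 and higher for 50, with a median log2 fold change of −0.084, and 29 did not overlap between groups on the lower side and 10 on the higher side. That is to be read against the 11.9% and 11.0% of all genes given above. With the length and GC trend removed the median over the lists was −0.036. Without inhibitor mouse 3, when 14.3% of all genes were called in either direction, calls appeared in 7 of the 8 lists. They numbered 6 among other immediate early genes, 4 in the MAPK cascade, 4 among upstream factors, 3 among decay factors and 1 each among leucine zipper factors, feedback inhibitors and stress genes.

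Other AP-1 and related leucine zipper factors had 10 of 16 tested genes lower (median −0.12). Ddit3, the stress factor CHOP, stood at 51.6 ± 0.624 CPM in inhibitor mice and 45.2 ± 1.70 CPM in controls (log2 fold change 0.19, edgeR adjusted p = 0.128), and at 0.02 with the length and GC trend removed. Atf7, an ATF2 relative that pairs with JUN, was at −0.31, and Atf4 at 0.14. The list of other immediate early genes had 28 of 41 lower (median −0.05). Egr4, a relative of Egr1 needed for male fertility in mice, averaged 6.11 ± 0.199 CPM in inhibitor mice and 8.12 ± 0.901 CPM in controls (SD, n = 3 per group). Its log2 fold change was −0.42 (SE 0.118, edgeR adjusted p = 0.118). Removing the length and GC trend brought Egr4 to −0.22. Homer1, a scaffold protein gene with an activity-induced form, was at −0.25 and Rhob, a small GTPase gene, at −0.20.

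Upstream of the members, the MAPK cascade had 18 of 28 genes lower (median −0.05). Map3k1, a kinase that feeds the JNK pathway, was at −0.30, Mapk7 (ERK5) at −0.31 and Map2k2 (MEK2) at −0.14. With the trend removed Map3k1 was at −0.19, Mapk7 at −0.195 and Map2k2 at −0.047. Factors that switch on immediate early promoters had 11 of 16 lower (median −0.12, or −0.018 with the trend removed). Crtc3 and Crtc1, coactivators of CREB, were at −0.32 in each case. With the trend removed Crtc3 was at −0.18 and Crtc1 at −0.115 (edgeR adjusted p = 0.269 and 0.609). Crtc3 averaged 16.3 ± 0.385 CPM in inhibitor mice and 20.3 ± 0.768 CPM in controls (edgeR adjusted p = 0.093), and DESeq2 called it (adjusted p = 0.046). Over all genes DESeq2 called 166 lower and 367 higher, against 16 and 10 by edgeR. Mef2d, a MADS box factor, was at −0.37.

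Feedback inhibitors of the cascade had 11 of 16 genes lower (median −0.08). The dual-specificity phosphatase gene Dusp7 averaged 1.51 ± 0.064 CPM in inhibitor mice and 2.49 ± 0.064 CPM in controls (−0.71 on the log2 scale, SE 0.169, edgeR adjusted p = 0.093). Dusp9 was at −0.72 (SE 0.225) and Dusp10, which acts on JNK and p38, at 0.12. With the trend removed Dusp7 and Dusp9 were at −0.62 and −0.63 (edgeR adjusted p = 0.158 and 0.233). Factors that bind AU-rich or related messages had 9 of 14 lower (median −0.09), with the decay factor gene Zfp36l2 at −0.35, Ybx1 at 0.16 and Khsrp at −0.13, the last at −0.023 with the trend removed.

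Genes reported as AP-1 targets had 14 of 15 tested members lower (median −0.10, or −0.042 with the trend removed), and none passed. Over all genes tested 51.0% were lower, and without control mouse 2 the median of this list was 0.04. Ccnd1, the cyclin D1 gene, averaged 7.91 ± 0.401 CPM in inhibitor mice and 9.79 ± 0.891 CPM in controls (log2 fold change −0.31, edgeR adjusted p = 0.159). The gelatinase gene Mmp2 was at −0.64 and the haem oxygenase gene Hmox1 at −0.21. Of the 4 not tested, Il6, Mmp3 and Mmp13 had between 0 and 4 fragments summed over each group, and Plaur had 11 in each. Heat and stress genes had 5 of 10 lower and a median of 0.02. Hspa1b, a heat-inducible HSP70 gene, was at −0.49, but its near-identical copy Hspa1a was at 0.12, and how fragments were split between them is uncertain. The co-chaperone gene Dnajb1 was at 0.12 and Hspa5 at 0.08.

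**Figure D5:**
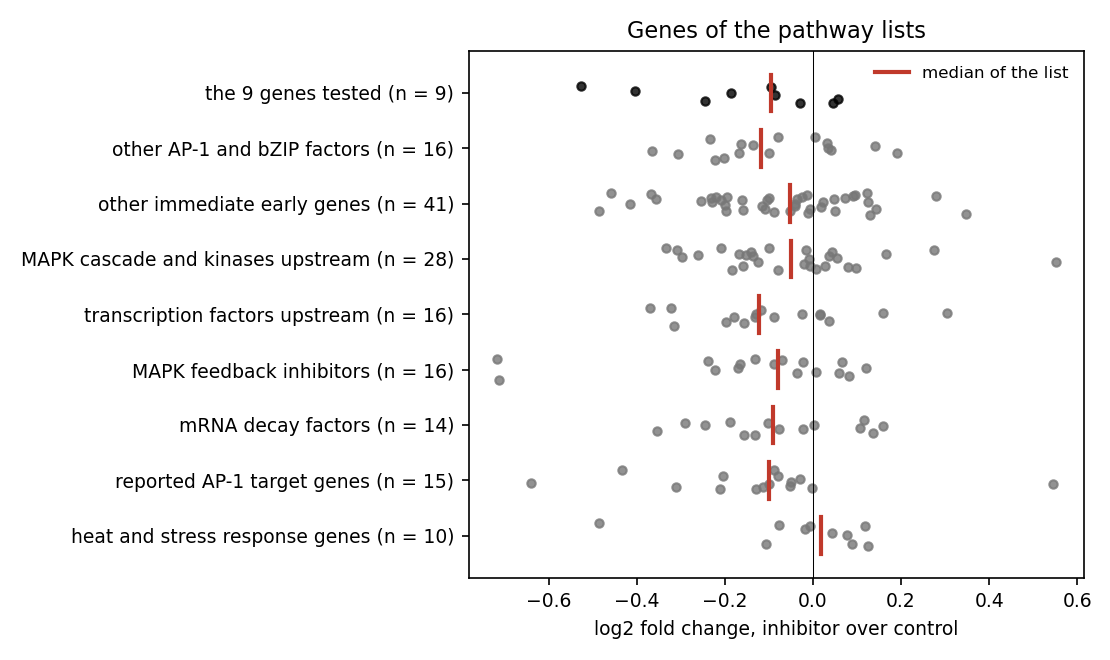
Log2 fold change, inhibitor over control, of every tested gene in the members' list (black) and in the 8 pathway lists (grey), with the median of each list as a red line. Medians lie between −0.12 and 0.02, and no gene shown passed the threshold.

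Among markers of the cell types of the testis, calls were made in 1 list, that of undifferentiated spermatogonia, and none of the other markers tested passed (edgeR, all 6 mice). All 10 tested markers of undifferentiated spermatogonia had lower estimates in inhibitor mice and 4 passed (Ret, Sox3, Zbtb16 and Lin28a). Their summed levels were 52.2 to 58.2 CPM in inhibitor mice and 75.2 to 79.0 CPM in controls. Without control mouse 1, control mouse 2, inhibitor mouse 1 or inhibitor mouse 2, none of these 4 calls held, with log2 fold changes over all 6 such omissions of −2.01 to −1.80 for Ret, −1.70 to −1.27 for Sox3, −1.07 to −0.88 for Zbtb16 and −1.37 to −0.98 for Lin28a. In the omissions in which none of these calls held, no gene at all was called. Without control mouse 3, Ret alone of the 4 passed. The 6 markers of differentiating spermatogonia had lower estimates too, with sums of 53.3 to 57.4 CPM in inhibitor mice and 64.0 to 68.7 CPM in controls.

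Of 10 spermatocyte markers, 9 had higher estimates in inhibitor mice, and their median log2 fold change was 0.18. Removing the length and GC trend brought it to 0.017. The spermatocyte sums were 6392 to 6729 CPM in inhibitor mice and 5858 to 6163 CPM in controls. For elongating spermatids 9 of 10 had higher estimates and the 2 medians were 0.15 and 0.088, with sums of 23060 to 24270 CPM in inhibitor mice and 21100 to 21870 CPM in controls. All 12 Sertoli markers had lower estimates with overlapping sums (1158 to 1483 CPM in inhibitor mice and 1298 to 1366 CPM in controls). Of 9 macrophage markers 6 had lower estimates (median −0.04). Their sum was nonetheless 448 to 481 CPM in inhibitor mice and 400 to 418 CPM in controls, most of it from Aif1, at 367 and 319 CPM. Mrc1, the next highest, was at 39.3 and 39.7 CPM. Whether Aif1 stands for macrophages here was not tested. The sums of Leydig, peritubular myoid and endothelial markers overlapped, though 7 of 9, 6 of 7 and 8 of 9 of these markers had lower estimates. The exception among myoid markers was Actg2, at 196 and 185 CPM, and their median log2 fold change was −0.22, or −0.065 with the trend removed. Of 5 lymphocyte markers tested 4 had higher estimates, with sums of 8.08 to 8.31 CPM in inhibitor mice and 6.76 to 7.21 CPM in controls. None of the markers named was at 0 except 2 of 4 erythroid and 1 of 7 epididymal genes. The part of such differences in the members' values was not tested.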

How the data were processed

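Polyadenylated RNA of whole testis was made into directional libraries from 500 ng of total RNA and read as single ends of 81 nt, per the labels' protocols. The submitters' processing notes name cutadapt 1.8, TopHat2 2.0.13, Cuffdiff 2.2.1 and build mm10. No source used here names the gene annotation or the strand setting. The authors deposited expected counts (fragments per gene and library) and FPKM. Of 140166 count values, 98.8% were whole within 1e-06, those of the 10 members all among them, and the rest were rounded. The 2 other value columns of the table were not used.

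Genes were filtered (filterByExpr), scaled by trimmed mean of M values (TMM) and tested with edgeR 4.0.16 in R 4.3.3, and intervals are from the same fit. CPM uses the TMM factors. Log2 CPM has a prior count of 2. The length and GC trend was a loess surface (span 0.5) per library over GENCODE M21 transcripts (99.0% of tested genes), used as an offset. Alternatives used DESeq2 1.42.0, limma 3.58.1, other scalings and filters. The fit was tested on simulated data. Named list genes are the 3 with the smallest p in each list. Members and lists were chosen with earlier results of these data known. P-values set the difference between the groups against the spread between these mice, which the fit moderates across genes.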

Additional observations from a re-analysis of the deposited data

How the results depend on the processing

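No member was called under any setting tried except Jund and Fosl2 without inhibitor mouse 3; DESeq2 gave no adjusted p for 7 of the 9. Depth limits Fos, Fosl1 and Atf3 most. The genes called higher and lower, 10 and 16 in the report, numbered 367 and 166 with DESeq2, 3 and 7 with at least 50 counts in 3 libraries, 58 and 57 with no filter, and 6 and 7 with the length and GC trend removed. They were 0 and 1 by limma on log2(FPKM + 0.1), 0 and 0 on log2(FPKM + 1), 4 and 23 with library totals alone and 3 and 11 with limma voom. With the mouse number as a block they were 0 and 5, and 0 and 2 with the trend removed as well. Same-numbered mice did not deviate together (correlations 0.062, −0.116 and −0.02 over 13734 genes). With 3 mice per group these correlations are bound to one another, so they cannot exclude a shared litter or day. The labels name no pairing, and the number is not taken as one. With the trend removed Jun reversed to 0.0422 and Junb to 0.0131, or 0.0532 and 0.001 with the block too. List medians under the same 2 settings were −0.0482 and −0.0518 for leucine zipper factors, −0.0184 and −0.0162 for upstream factors, and −0.0398 and −0.0395 for decay factors, while feedback inhibitors were at −0.033 with the trend removed. The decay factors' median was −0.0788 with at least 50 counts, −0.12 with library totals and −0.0633 on log2(FPKM + 1). DESeq2 called 1 upstream factor. Causes were not tested.

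Leaving out each mouse in turn, genes called higher ranged from 0 to 1470 and lower from 0 to 935. Log2 fold changes ranged from −0.12 to 0.182 for Fos, −0.0303 to 0.137 for Fosb, −0.703 to −0.295 for Fosl1, −0.645 to −0.221 for Fosl2, −0.115 to 0.1 for Jun, −0.242 to 0.0309 for Junb, −0.212 to −0.153 for Jund and −0.214 to −0.00674 for Ier2. The members' median ranged from −0.214 to −0.0402, that of leucine zipper factors from −0.118 to −0.0329, of reported AP-1 targets from −0.228 to 0.0378, of upstream factors from −0.153 to −0.0625 and of decay factors from −0.102 to −0.0684. Calls ranged from 0 to 2 among members, 0 to 1 among leucine zipper factors, feedback inhibitors and stress genes, 0 to 3 among decay factors, 0 to 4 in the MAPK cascade and among upstream factors, and 0 to 6 among other immediate early genes. Of the other values, 393 kept their direction and side of the threshold or moved less than the spread, 15 passed it under another setting and 3 moved.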

Other observations

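The relatives of Egr1 were looked at together after their values had been seen. Egr2, a zinc finger factor of the same family, had 3, 4 and 4 fragments in inhibitor mice and 13, 15 and 9 in controls, too few for the filter. All inhibitor mice were thus below all controls, and without the filter its log2 fold change was −1.44 (SE 0.516) and did not pass (edgeR adjusted p = 0.166). Egr3 averaged 10.5 ± 2.38 CPM in inhibitor mice and 12.3 ± 1.30 CPM in controls (SD, n = 3 per group), with overlap of the groups (log2 fold change −0.23, SE 0.157, edgeR adjusted p = 0.481). Per length, the group means of Egr3 were 8.53 FPKM in inhibitor mice and 9.93 FPKM in controls. Inhibitor means were 3.16 FPKM for Egr4, 1.37 for Egr1 and 0.0497 for Egr2, and control means were 4.198 FPKM for Egr4, 1.63 for Egr1 and 0.138 for Egr2.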
